A study of Mus musculus with 12 samples.

Results

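IL-2, IL-7, TSLP, IL-4 and IL-25, cytokines that act on group 2 innate lymphoid cells (ILC2s), are read through a small set of shared receptor chains. The transcripts of 10 genes were followed here: the receptor chains Il2ra, Il2rb, Il2rg, Il7r, Crlf2, Il4ra, Il17rb and Il17ra, and the kinases Jak1 and Jak3. They were found by gene symbol, and each was listed once among the 18601 genes of the table for knockout and wild-type cells and once among the 21361 genes of the table for sorted fractions.

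ILC2s are tissue lymphocytes without an antigen receptor that make type 2 cytokines. The libraries came from lung ILC2s of C57BL/6 mice, 8 weeks of age, given 3 intranasal doses of recombinant mouse IL-33 at 0.5 µg per mouse. After the sort, every group was kept for 24 hours in medium with 10 ng per mL of IL-7 and of IL-2, so the ligands of 2 of these receptors were present in all 12 libraries and no library without them was analysed here. Wild-type ILC2s (WT, libraries 9, 10 and 11) were set against ILC2s of mice lacking LAIR-1, an inhibitory collagen receptor (KO, libraries 13, 14 and 15). In the second experiment, ILC2s of wild-type mice with LAIR-1 (LAIR-1+, libraries 1, 2 and 3) were set against those that lacked it (LAIR-1-, libraries 7, 8 and 10). For WT no sort on LAIR-1 is labelled. Whether a library is 1 mouse or a pool is not labelled either, so each p-value reflects only how far these libraries spread, which may be technical. Library 10 of WT and library 10 of LAIR-1- are different libraries.

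The receptors share parts. Il2rg encodes the common gamma chain, which completes the receptors for IL-2, IL-7 and IL-4; Il2ra (CD25) and Il2rb complete the high-affinity IL-2 receptor, Il7r (CD127) pairs with the gamma chain for IL-7 and with Crlf2 for TSLP, and Il4ra is the ligand-binding chain for IL-4. JAK1 sits on Il2rb, Il7r and Il4ra and JAK3 on the gamma chain, and they act through STAT5 for IL-2 and IL-7 and STAT6 for IL-4. The IL-25 receptor, Il17rb with Il17ra, belongs to another family and signals through the adaptor Act1 (Traf3ip2) and TRAF6 instead of JAKs.

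The transcripts lie at these positions of mm10. Il2ra is at chr2:11642807-11693193 on the plus strand, Il2rb at chr15:78479256-78495271 on the minus strand, and Il2rg at chrX:101264378-101268255 on the minus strand. Il7r lies at chr15:9505788-9530176 and Crlf2 at chr5:109554709-109558993, both on the minus strand, and Il4ra at chr7:125552120-125579474 on the plus strand. Il17rb is at chr14:29996135-30008896 on the minus strand and Il17ra at chr6:120463247-120487559 on the plus strand. Jak1 lies at chr4:101152367-101265282 on the minus strand and Jak3 at chr8:71676296-71690575 on the plus strand. Exons of Il2rg share 728 bases, 30.5% of their length, with Gm20489 on the same strand, which held at most 7.84 counts in any library. Jak3 shares 7.55% with Insl3 on the same strand (at most 94.4 counts), Il4ra 9.51% with the antisense gene Gm44876 (at most 13.1 counts) and Il17rb 3.80% with Actr8 on the other strand (at most 1593 counts). Whether counting used strand is not given in the sources used here, so reads of Il17rb and Actr8 in the shared bases may not have been told apart.

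Promoters of 8 members were matched in RefSeq (GRCm38.p6), each from 250 bases before to 50 bases after the RefSeq start, which need not be the start given above. Il2ra and Il7r are shown because they are the receptor chains whose values differ most clearly between groups below, Il2ra between the sorted fractions and Il7r between KO and WT. Il2ra is read from chr2:11642542-11642841 on the plus strand and Il7r from chr15:9529827-9530126 on the minus strand. Capitals mark matches, on either strand, to the STAT motif TTCNNNGAA or the NF-kappaB consensus.
Il2ra: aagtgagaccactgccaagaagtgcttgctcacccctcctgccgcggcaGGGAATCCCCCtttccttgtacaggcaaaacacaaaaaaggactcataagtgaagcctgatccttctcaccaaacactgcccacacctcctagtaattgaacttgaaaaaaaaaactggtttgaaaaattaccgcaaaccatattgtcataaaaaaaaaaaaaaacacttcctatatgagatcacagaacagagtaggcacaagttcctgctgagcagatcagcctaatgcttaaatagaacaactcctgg
Il7r: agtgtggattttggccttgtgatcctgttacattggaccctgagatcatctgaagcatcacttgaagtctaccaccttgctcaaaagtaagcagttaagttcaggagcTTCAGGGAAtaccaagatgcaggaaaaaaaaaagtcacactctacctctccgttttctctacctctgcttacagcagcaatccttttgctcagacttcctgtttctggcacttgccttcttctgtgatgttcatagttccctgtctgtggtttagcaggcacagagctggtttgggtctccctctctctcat
The Il2ra window held the NF-kappaB consensus in overlapping matches at positions -201 and -200, counted from the start base as 0, and the Il7r window the STAT letters at -142. Of 32851 RefSeq promoters of this length, 8.30% held the STAT motif and 8.46% the NF-kappaB consensus. No other member's window held the STAT motif, and Il4ra held the NF-kappaB consensus at position 20. A match describes the letters of a window and not a binding site.

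Listed counts per library ran from 18061470 to 20878649 in KO and WT and from 18885002 to 28290487 in the sorted fractions, and levels are given as CPM (counts scaled to a fixed library total) with TMM factors fitted within each table. Sorted libraries resembled each other closely (r of log2 CPM over genes 0.970 to 0.984), whereas in the other table WT 9 stood apart (r of 0.857 to 0.900 with the other 5). There WT 10 correlated with WT 11 at 0.919 but with KO at 0.883 to 0.887, WT 11 with KO at 0.935 to 0.945, and KO libraries among themselves at 0.908 to 0.920. Lair1 itself stood at 3.75, 11.1 and 7.66 CPM in WT, against 0.427, 0 and 3.28 CPM in KO, so the library labelled KO 15 held nearly as much as WT 9; fold changes of the members are therefore also given without it. LAIR-1+ held 8.71, 12.4 and 12.2 CPM of Lair1 and LAIR-1- held 1.10, 0.577 and 1.95 CPM. All 11 ILC2 markers exceeded 1 CPM in every library, among them Gata3, Il1rl1 and Il5. Markers of T cells summed to 18.0 to 27.7 CPM in KO and WT and 55.5 to 85.7 CPM in the sorted fractions. Cd3g made most of that sum, at 14.8 to 22.1 CPM in KO and WT and 41.1 to 67.8 CPM in the sorted fractions. Cd3d was at most 1.40 CPM in any library, and Cd8a was among the genes not listed in either table. NK and ILC1 markers summed to at most 3.18 CPM.

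Per kilobase of exon the IL-2 receptor chains led the members in all 4 groups. In WT the gamma chain Il2rg stood at 575 ± 36.2 CPM per kb (SD, n = 3), Il2ra at 249 ± 36.6, Il2rb at 106 ± 14.05, Jak1 at 94.4 ± 6.15, Il4ra at 85.4 ± 7.18 and Jak3 at 64.6 ± 12.5 CPM per kb. The chains for IL-7, IL-25 and TSLP were lower, with Il7r at 25.7 ± 1.49, Il17ra at 16.8 ± 0.274, Crlf2 at 14.98 ± 2.34 and Il17rb at 5.29 ± 3.88 CPM per kb. Neighbours in this order whose SD ranges met were Il2rb and Jak1, Jak1 and Il4ra, and Il17ra and Crlf2. KO kept the same order of 10 genes, from 599 ± 38.0 CPM per kb for Il2rg to 7.58 ± 1.95 for Il17rb.

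In LAIR-1+ cells Il2rg (267 ± 9.03 CPM per kb) and Il2ra (238 ± 34.6) lay within their spread of each other, while in LAIR-1- cells Il2ra was the higher, at 321 ± 6.92 against 243 ± 6.33 CPM per kb. Il2rb followed at 107 ± 4.55 and 105 ± 2.99 CPM per kb, then the kinases at 68.2 to 83.6 CPM per kb. Il4ra stood at 27.7 ± 1.61 and 22.3 ± 2.09 CPM per kb. The 4 remaining chains, Il17rb, Il7r, Crlf2 and Il17ra, lay between 21.6 and 8.92 CPM per kb, and Il17rb, Il7r and Crlf2 were within or close to each other's spread.

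**Figure D1:**
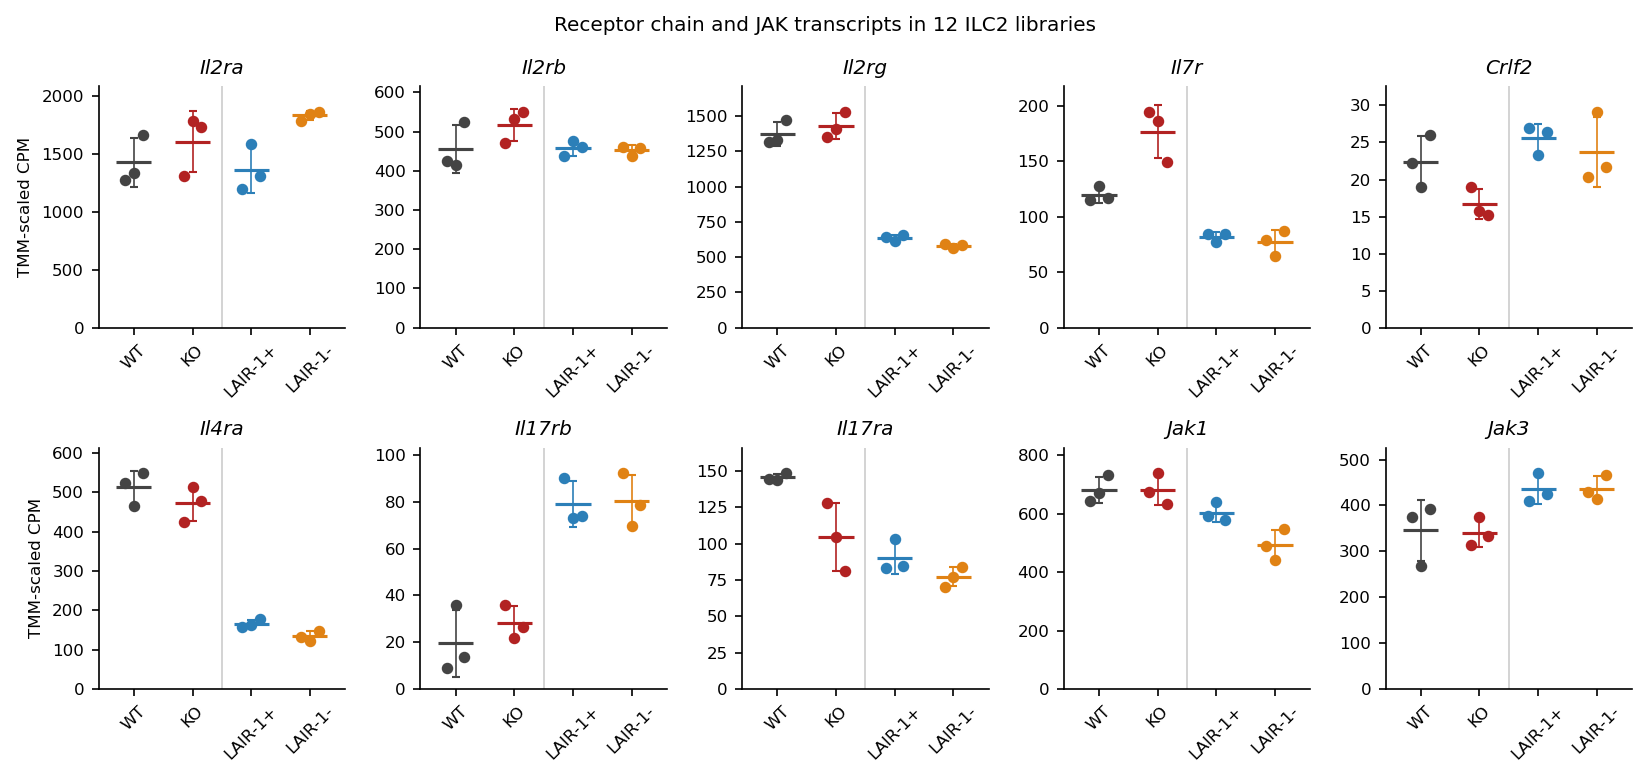
TMM-scaled CPM of the 10 genes in every library, 1 panel per gene with its own vertical axis starting at 0; points are libraries, with the group mean and SD (n = 3) as a line and error bar. Il2ra in the LAIR-1- libraries (1786 to 1860 CPM) lies above all LAIR-1+ libraries (1199 to 1581 CPM), and Il7r in KO (149 to 195 CPM) above WT (115 to 128 CPM).

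The comparison of KO with WT asks whether cells from mice without LAIR-1 carry different amounts of these transcripts. Il7r was the member with the smallest p, higher in the 3 KO libraries, and Il17ra and Crlf2 had lower values there, while the IL-2 receptor chains, Il4ra, Il17rb and both kinases overlapped between the groups. By edgeR's quasi-likelihood F test, adjusted by Benjamini-Hochberg across the 14164 genes tested, 0 of the 10 members passed an adjusted p of 0.05. Over all genes 0.00706% passed, a single gene, so a count of 0 says little about the members. An unadjusted p under 0.05 was reached by 2 members (Il7r and Il17ra) and by 8.37% of all genes; DESeq2 called 1 member and 2.22% of the genes it tested, and limma-voom and limma-trend called 0 members. Values of KO and WT did not overlap for 3 of 10 members (Il7r, Il17ra and Crlf2), against 16.2% of all genes; on the authors' deposited CPM, a scaling tried after seeing the data, it was 2 of 10, without Crlf2, against 16.2%. In a bulk sample, fewer cells that express a gene and less RNA per cell cannot be told apart.

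Il7r, the IL-7 receptor alpha chain, was at 115, 128 and 117 CPM in WT 9, 10 and 11 and at 195, 186 and 149 CPM in KO 13, 14 and 15. All 3 KO libraries lay above all 3 WT libraries, and KO 15 was the lowest of KO. The log2 fold change was 0.56 ± 0.13 (SE; 95% interval 0.26 to 0.86), with an adjusted p of 0.313 in edgeR, rank 146 of the genes tested. Without KO 15 it was 0.67 with an adjusted p of 0.515, without WT 9 it was 0.53 (0.603) and without WT 10 it was 0.61 (0.616), and leaving out each library in turn gave 0.49 to 0.67. DESeq2 gave 0.56 with an adjusted p of 0.0102, and edgeR restricted to genes averaging 50 CPM or more, of which 1.16% passed, an adjusted p of 0.0783.

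Crlf2, the TSLP-specific chain that pairs with Il7r, stood at 22.2, 19.0 and 26.0 CPM in WT, against 19.0, 15.8 and 15.3 CPM in KO. The groups were separated only by WT 10 (343 counts) lying just above KO 13 (400 counts, in a deeper library), and on the deposited CPM they overlapped, at 16.5 in WT 10 and 16.6 in KO 13. Its log2 fold change was -0.43 ± 0.23 (95% interval -0.97 to 0.12, adjusted p = 0.697 in edgeR), and -0.37 without KO 15. Within each library the log2 ratio of Crlf2 to Il7r counts was -2.37, -2.75 and -2.17 in WT and -3.36, -3.56 and -3.29 in KO. The ratio was lower in every KO library, by 0.97 on average, with an exact 2-sided permutation p of 0.1, the smallest that 3 against 3 libraries allow, and 0.32 after adjustment over the 8 ratios computed. Without KO 15 the difference was -1.03.

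Among the IL-2 receptor chains, Il2ra stood at 1274, 1335 and 1662.5 CPM in WT, against 1304, 1781 and 1729 CPM in KO. The groups overlapped, with a log2 fold change of 0.17 ± 0.15 (95% interval -0.18 to 0.53, adjusted p = 0.838 in edgeR). Leaving out 1 library gave 0.09 (without KO 14) to 0.30 (without WT 11; 0.30 also without KO 13), and 0.10 without WT 9 and 0.12 without KO 15. Il2rb, the signalling chain, ran from 416 to 525 CPM in WT and from 471 to 550.4 CPM in KO, a log2 fold change of 0.18 ± 0.11 (adjusted p = 0.754 in edgeR) that was 0.14 without KO 15, 0.12 without WT 10 and 0.30 without WT 11. Il2rg, the shared chain, ran at 1314 to 1473 CPM in WT and 1354 to 1531 CPM in KO, and its interval of -0.12 to 0.23 on the log2 scale was the narrowest of the receptor chains; its log2 fold change of 0.06 was 0.01 without KO 15 and at most 0.11 with any library left out. The Il2ra to Il2rb count ratio was 3.12 in WT and 3.08 in KO. Il7r relative to Il2rg was higher in every KO library, at a log2 ratio of -3.52 ± 0.14 (SD, n = 3) in WT and -3.02 ± 0.29 in KO (exact permutation p = 0.1, adjusted 0.32), a difference of 0.50 that was 0.66 without KO 15.

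Il4ra, the IL-4 receptor alpha chain, stood at 524, 464 and 548 CPM in WT, against 425, 512 and 478 CPM in KO. These overlap, with a log2 fold change of -0.12 ± 0.10 (95% interval -0.36 to 0.12, adjusted p = 0.830 in edgeR). It was -0.13 without KO 15, -0.19 without WT 10, -0.18 without KO 14, -0.07 without WT 11 and -0.05 without KO 13. The kinases, which sit below these chains, overlapped too. Jak1 ranged over 644 to 731 CPM in WT and 635 to 738 CPM in KO, with an interval of -0.20 to 0.20 on the log2 scale. Jak3 ranged over 269 to 392 CPM in WT and 314 to 375 CPM in KO, with an interval of -0.39 to 0.35. The sign of both kinases' fold changes changed with the library left out; without KO 15 they were 0.05 for Jak1 and -0.004 for Jak3.

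The IL-25 receptor chains had the widest and the narrowest spread in WT. Il17rb, which binds IL-25, stood at 8.95, 36.0 and 13.9 CPM in WT, against 35.9, 21.7 and 26.7 CPM in KO. WT 10 was as high as the highest KO library while WT 9 was 4.02-fold lower than WT 10, a coefficient of variation of 73.3% where counting alone gives 7.74%. The log2 fold change of 0.52 ± 0.52 (95% interval -0.72 to 1.76, adjusted p = 0.870 in edgeR) became 1.30 without WT 10, 0.17 without WT 9 and 0.56 without KO 15. Its partner Il17ra, shared with the IL-17 receptors, stood at 144.5, 144.2 and 148.5 CPM in WT, against 128, 104 and 81.1 CPM in KO. All KO libraries lay below WT and the library labelled KO 15 was the lowest, with a log2 fold change of -0.48 ± 0.17 (95% interval -0.88 to -0.08, adjusted p = 0.514 in edgeR). Without KO 15 it was -0.33, with an adjusted p of 0.760. The log2 ratio of Il17rb to Il17ra overlapped between the groups, at -3.14 ± 1.03 (SD, n = 3) in WT and -1.90 ± 0.34 in KO (exact permutation p = 0.2, adjusted 0.32); the difference of 1.24 was 1.09 without KO 15.

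Other measures differed between WT and KO beside these members. Epithelial markers summed to 49.1 to 117 CPM in WT and 17.8 to 26.1 CPM in KO. The highest WT sum, in WT 11, held 58.8 CPM of Scgb1a1, which was at 0 and 0.443 CPM in WT 9 and 10. Epcam made most of the sum in KO and in WT 9 and 10. At 49.1 to 55.9 CPM, Epcam was above its KO values of 16.9 to 25.4 CPM in each WT library. Sftpa1 was not listed for KO and WT, and 3 of 5 markers had a count in WT. The 13 mitochondrial mRNAs summed to 3311 to 5539 CPM in WT and 6248 to 6823 CPM in KO. Their part in the result was not tested.

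**Figure D2:**
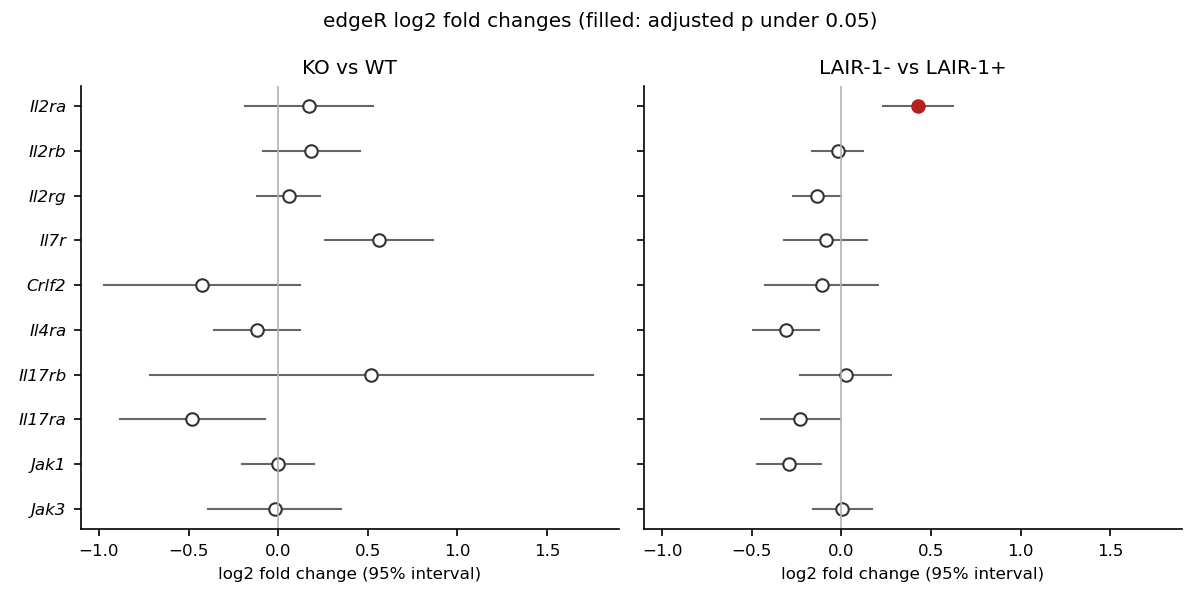
Log2 fold change of each member with its 95% interval from edgeR, KO against WT on the left and LAIR-1- against LAIR-1+ on the right; filled points passed an adjusted p of 0.05. Il2ra between the sorted fractions, at 0.43, is the filled point, and the interval of Il17rb in KO against WT is the widest.

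The comparison of LAIR-1- with LAIR-1+ cells asks how these transcripts differ between wild-type ILC2s sorted by the surface receptor. Il2ra rose in LAIR-1- cells and was the member that passed. Il4ra, Jak1 and Il2rg had lower values in every LAIR-1- library without passing, and Il2rb, Jak3, Il17rb, Il17ra, Il7r and Crlf2 overlapped. Of 10 members 1 passed, and 4.01% of the 14261 genes tested did, 1.30% higher and 2.71% lower. Values did not overlap for 4 of 10 members, against 21.0% of all genes (the same 4 against 21.6% on the deposited CPM), and 5 members had an unadjusted p under 0.05, against 15.4%. The median log2 difference was -0.10 over the members and 0.005 over all genes tested, with 7 of 10 members below 0.

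Il2ra, the inducible alpha chain that gives the IL-2 receptor its high affinity, was at 1199, 1581 and 1304 CPM in LAIR-1+ libraries 1, 2 and 3. It was at 1786, 1846 and 1860.4 CPM in LAIR-1- libraries 7, 8 and 10. The groups did not overlap; the LAIR-1- libraries lay within 1.04-fold of each other and the LAIR-1+ libraries within 1.32-fold. The log2 fold change was 0.43 ± 0.09 (SE; 95% interval 0.23 to 0.62), with an adjusted p of 0.0187 in edgeR. The direction was the same with every library left out (0.34 to 0.55), but the call was not. Leaving out LAIR-1+ 1 (0.34, with an edgeR adjusted p of 0.0936) or LAIR-1+ 3 (0.40, with 0.0616) ended it, as did leaving out LAIR-1- 7 (0.45, with 0.0566) or LAIR-1- 10 (0.42, with 0.0610). It was kept when LAIR-1+ 2 (0.55, with 0.00269) or LAIR-1- 8 (0.42, with 0.0497) was left out. Among genes averaging 50 CPM or more, of which 5.67% passed, the adjusted p of Il2ra was 0.0271 in edgeR.

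The chains that Il2ra joins did not pass. Il2rb, which carries JAK1, was at 438, 477 and 460.4 CPM in LAIR-1+ and 461, 437 and 458 CPM in LAIR-1-, with a log2 fold change of -0.02 ± 0.06 and an interval of -0.16 to 0.12. Il2rg was at 645, 614 and 656 CPM in LAIR-1+ and 591, 563 and 588 CPM in LAIR-1-, lower in each LAIR-1- library, with a log2 fold change of -0.14 ± 0.06 (interval -0.272 to -0.002, adjusted p = 0.315 in edgeR). The log2 ratio of Il2ra to Il2rb counts within a library was 1.45, 1.73 and 1.5 in LAIR-1+ and 1.95, 2.08 and 2.02 in LAIR-1-. In counts this is 2.95 Il2ra for each Il2rb against 4.05, with no overlap. The ratio of Il2ra to Il2rg went from 2.12 to 3.15 and also did not overlap (exact permutation p = 0.1 for both, the smallest possible, adjusted 0.2). The log2 ratio of Il2rb to Il2rg was -0.56 to -0.36 in LAIR-1+ and -0.36 in each LAIR-1- library.

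Il4ra was at 158, 163 and 177 CPM in LAIR-1+ and 132, 123 and 148 CPM in LAIR-1-. The groups did not overlap, with a log2 fold change of -0.31 ± 0.08 (95% interval -0.49 to -0.13) and an adjusted p of 0.0673 in edgeR. Without LAIR-1- 10 it was -0.39 with an adjusted p of 0.0425, and DESeq2, which called 4.79% of the genes it tested, gave an adjusted p of 0.0201. Jak1 was at 593, 639.9 and 580.2 CPM in LAIR-1+ and 488, 443 and 547 CPM in LAIR-1-, again without overlap. Its log2 fold change was -0.29 ± 0.08 (95% interval -0.47 to -0.11, adjusted p = 0.0773 in edgeR); without LAIR-1- 10 it was -0.38 with an adjusted p of 0.0328, DESeq2 gave 0.0204 and limma-voom 0.0402. Jak3, at 409.6 to 470 CPM and 415 to 467 CPM, had a log2 fold change of 0.01 ± 0.08 and an interval of -0.16 to 0.17. The log2 ratio of Jak1 to Jak3 was 0.53, 0.45 and 0.45 in LAIR-1+ and 0.19, 0.09 and 0.23 in LAIR-1-, lower in every LAIR-1- library (exact permutation p = 0.1, adjusted 0.2).

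The receptors for IL-7, TSLP and IL-25 overlapped between the fractions. Il7r was at 84.1, 77.1 and 84.1 CPM in LAIR-1+ and 79.0, 64.4 and 87.0 CPM in LAIR-1-, a log2 fold change of -0.09 ± 0.11 (interval -0.32 to 0.15, adjusted p = 0.779 in edgeR). Crlf2 ran from 23.4 to 27.0 CPM and from 20.4 to 29.1 CPM, with an interval of -0.43 to 0.21. Neither the higher Il7r nor the lower Crlf2 to Il7r ratio of the KO libraries was seen here: that ratio was -1.68 ± 0.04 (SD, n = 3) on the log2 scale in LAIR-1+ and -1.70 ± 0.48 in LAIR-1-. The difference between the comparisons was not tested. Il17rb stood at 90.2, 72.9 and 73.9 CPM in LAIR-1+ and 92.1, 69.8 and 78.8 CPM in LAIR-1-, with an interval of -0.23 to 0.28, and Il17ra at 83.6, 103 and 84.7 CPM and 70.5, 77.4 and 83.7 CPM (log2 fold change -0.23 ± 0.10, adjusted p = 0.309 in edgeR).

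Markers of mast cells and basophils summed to 241 to 267 CPM in LAIR-1+ and 65.8 to 98.1 CPM in LAIR-1-; 3 of 4 exceeded 1 CPM in every sorted library, and Tpsab1 made most of the sum at 211 to 215 CPM against 43.0 to 68.9 CPM. Cpa3 was at 23.5, 52.2 and 25.4 CPM in LAIR-1+ and 23.1, 15.6 and 22.2 CPM in LAIR-1-, narrowly without overlap. The groups overlapped for the basophil marker Mcpt8, at 1.80, 2.70 and 3.57 CPM in LAIR-1+ and 3.52, 6.30 and 6.62 CPM in LAIR-1-. They also overlapped for Ms4a2, at 0.900, 1.79 and 0.155 CPM and 0.105, 0.787 and 0.418 CPM. Myeloid markers summed to 25.2 to 35.7 CPM in LAIR-1+ and 6.30 to 9.79 CPM in LAIR-1-, with 5 of 6 counted in each group and Fcgr1 not listed. Of these, Lyz2 was at 22.6, 11.1 and 20.55 CPM in LAIR-1+ and 2.47, 1.84 and 0 CPM in LAIR-1-. Cd68 and Itgam were also lower in every LAIR-1- library, while Csf1r and Adgre1 overlapped. Summed markers of eosinophils (1.70 to 2.54 CPM in LAIR-1+ against 7.38 to 10.6 CPM in LAIR-1-) and ILC3s (2.56 to 4.05 against 4.68 to 7.66 CPM) were higher in every LAIR-1- library, with Epx, Prg2, Il23r and Il17a not listed. So were those of B cells, at 6.96 to 10.8 CPM against 11.7 to 14.2 CPM, with Cd79b making most of the sum. Markers of NK cells and ILC1s were lower in every LAIR-1- library, at 2.33 to 3.18 CPM against 0 to 1.60 CPM. Their part in the result was not tested.

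**Figure D3:**
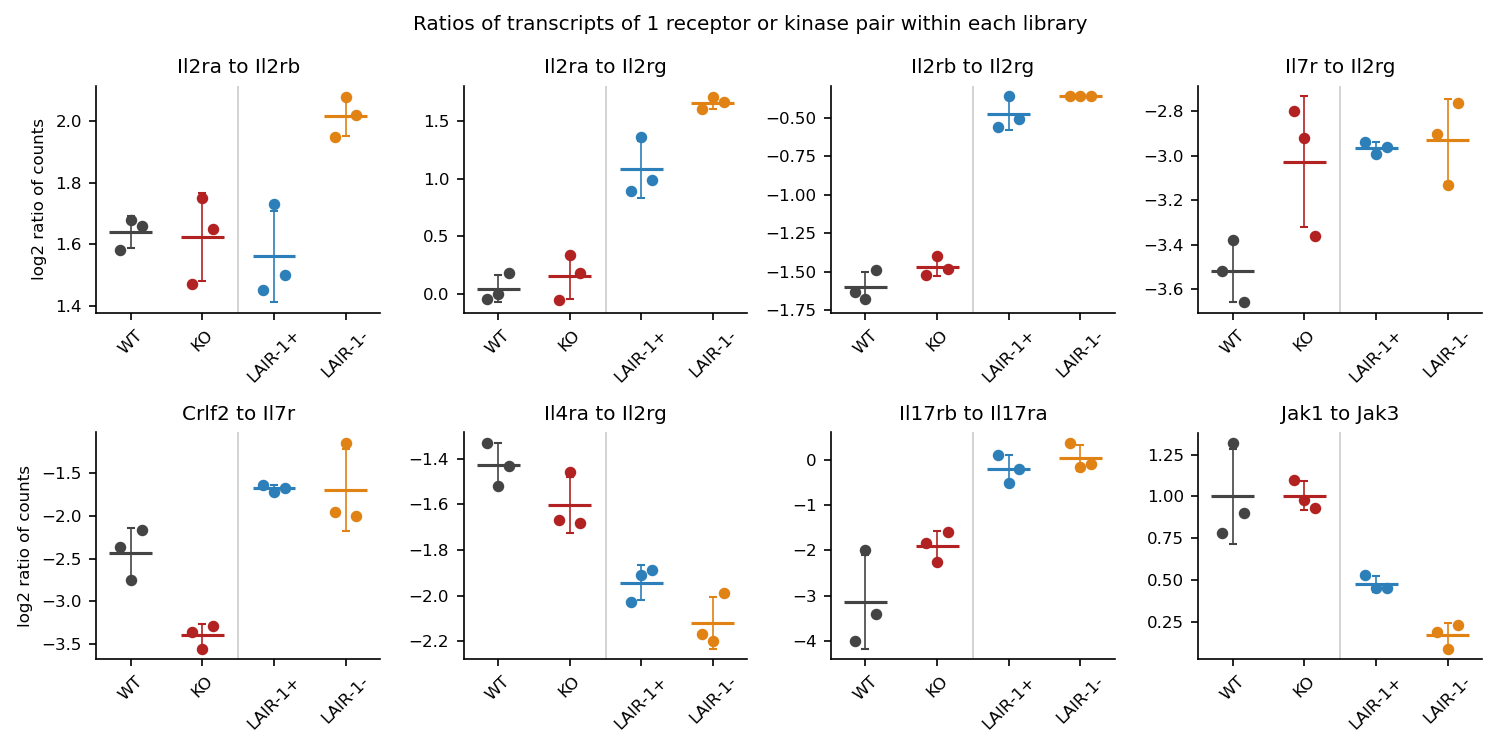
Log2 ratio of the counts of 2 chains or kinases within each library, 1 panel per ratio; points are libraries, with the group mean and SD (n = 3) as a line and error bar. The Il2ra to Il2rb ratio lies at 1.95 to 2.08 in LAIR-1- and 1.45 to 1.73 in LAIR-1+, and the Crlf2 to Il7r ratio at -3.56 to -3.29 in KO and -2.75 to -2.17 in WT.

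The 2 experiments were deposited and scaled as separate tables, so their levels stand side by side without a test. In medians over 6 libraries, Il4ra was 3.24-fold, Il2rg 2.29-fold and Il7r 1.70-fold higher in the KO and WT table, and Il17rb 3.16-fold and Jak3 1.20-fold higher in the sorted table, with no overlap of the libraries. The other 5 members overlapped between tables, Il2ra at 1274 to 1781 CPM and 1199 to 1860.4 CPM. These gaps ran in both directions between the experiments, and their cause was not tested.

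Of 54 other genes of these pathways, 45 were tested in KO against WT. By edgeR 0 passed over all genes tested. An unadjusted p under 0.05 was reached by 10 of 45, against 8.37% of all genes, and 12 of 45 did not overlap between the groups, against 16.2%. DESeq2 called 4, against 2.22% of all genes it tested, and limma-voom and limma-trend 0. Their median log2 difference was -0.02, against 0.004 over all genes. The feedback inhibitors that these receptors induce did not pass. Cish, a STAT5-induced inhibitor of the IL-2 receptor, stood at 554 ± 67.6 CPM in WT against 495 ± 54.3 CPM in KO (log2 fold change -0.16 ± 0.12). Socs1 was at 536 ± 63.0 and 540 ± 69.8 CPM (0.01 ± 0.13), Socs2 at 123 ± 13.8 and 116 ± 15.7 CPM (-0.09 ± 0.14) and Socs3 at 76.5 ± 45.2 and 75.3 ± 32.8 CPM (-0.02 ± 0.58), adjusted p 0.795 to 0.996 in edgeR for the 4 inhibitors. Without KO 15 the log2 fold changes were -0.08 for Cish, -0.05 for Socs1, -0.11 for Socs2 and -0.20 for Socs3.

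The signal transducers of these receptors also did not pass in KO against WT. Stat5b stood at 77.5 ± 14.4 CPM in WT against 106 ± 3.07 CPM in KO, without overlap (log2 fold change 0.46 ± 0.16, adjusted p = 0.505 in edgeR), and Stat5a at 36.6 ± 7.50 and 46.7 ± 9.57 CPM (0.35 ± 0.23). Stat6, which IL-4 uses, was at 221 ± 34.4 and 227 ± 28.0 CPM (0.04 ± 0.15). Bcl2, a survival gene downstream of IL-7, stood at 112, 109 and 114 CPM in WT, against 173.6, 173.6 and 136 CPM in KO, higher in each KO library and lowest in KO 15 (0.53 ± 0.12, adjusted p = 0.318 in edgeR and 0.0166 in DESeq2). Of partner chains, Il9r was at 102 ± 11.1 and 84.0 ± 14.8 CPM (-0.28 ± 0.17) and Il15ra at 19.6 ± 3.25 and 15.5 ± 5.57 CPM (-0.34 ± 0.32). Traf3ip2, the Act1 adaptor of the IL-25 receptor, stood at 45.2 ± 7.65 CPM in WT against 32.0 ± 3.10 CPM in KO (-0.50 ± 0.19, adjusted p = 0.542 in edgeR). Without KO 15, Stat5a was at 0.18, Il9r at -0.16, Stat6 at 0.12, Il15ra at -0.27, Stat5b at 0.44, Bcl2 at 0.64 and Traf3ip2 at -0.47 on the log2 fold change scale, and none passed.

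A further 3 genes were chosen after their values were seen, because an alternative analysis called them in KO against WT. Il13, a type 2 cytokine whose receptor uses Il4ra, stood at 55.5, 49.8 and 58.4 CPM in WT, against 104, 127 and 129.9 CPM in KO, a log2 fold change of 1.141 ± 0.138 with an adjusted p of 0.141 in edgeR, 0.00721 on genes of at least 50 CPM and 2.67e-10 in DESeq2. Il9 stood at 18.1, 21.8 and 30.6 CPM in WT, against 35.8, 213 and 162 CPM in KO (2.54 ± 0.62, adjusted p = 0.346 in edgeR, 0.0389 on genes of at least 50 CPM and 0.000127 in DESeq2). Ptpn6, the phosphatase SHP-1 that binds inhibitory receptors such as LAIR-1, stood at 68.3, 67.4 and 65.9 CPM in WT, against 50.9, 40.4 and 43.9 CPM in KO (-0.58 ± 0.14, adjusted p = 0.365 in edgeR and 0.0353 in DESeq2). Without the library labelled KO 15 the log2 fold changes were 1.08, 2.40 and -0.56, with adjusted p of 0.515, 0.682 and 0.724 in edgeR.

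Between the sorted fractions, 44 of the 54 were tested; 4 rose and 2 fell in LAIR-1- cells, against 1.30% and 2.71% of all genes, and 38 did not pass. The median log2 difference was -0.06, against 0.005 over all genes, and 20 of 44 did not overlap, against 21.0% of all genes. The kinase genes Pim2 and Pim1, which STAT5 can induce, rose: Pim2 from 39.4, 35.8 and 44.3 CPM in LAIR-1+ to 72.5, 71.1 and 74.7 CPM in LAIR-1- (log2 fold change 0.87 ± 0.10, adjusted p = 0.000447 in edgeR) and Pim1 from 265, 277 and 296 CPM to 345, 364 and 351 CPM (0.34 ± 0.07, adjusted p = 0.0154). Socs3, which STAT3 signals induce strongly, went from 47.5, 66.3 and 57.4 CPM to 91.4, 107 and 99.3 CPM (0.79 ± 0.12, adjusted p = 0.00231 in edgeR). The ligand Il4 went from 16.0, 14.3 and 14.3 CPM to 26.6, 31.5 and 24.9 CPM (0.90 ± 0.13, adjusted p = 0.00215 in edgeR).

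The 2 genes that fell in LAIR-1- cells were Myc, from 125, 111 and 121 CPM to 89.0, 94.4 and 92.2 CPM (-0.37 ± 0.08, adjusted p = 0.0175 in edgeR), and the interferon signal transducer Stat2, from 68.3, 54.7 and 48.7 CPM to 41.8, 38.1 and 39.1 CPM (-0.53 ± 0.12, adjusted p = 0.0347 in edgeR). Il4, Pim2 and Socs3 passed with each library left out in turn. Pim1 lost the call without LAIR-1+ 1 (0.30, with an edgeR adjusted p of 0.111), LAIR-1+ 2 (0.33, with 0.0647) or LAIR-1- 7 (0.36, with 0.0550). Myc lost it without LAIR-1+ 1 (-0.34, with an edgeR adjusted p of 0.113), LAIR-1+ 3 (-0.36, with 0.0566), LAIR-1- 7 (-0.34, with 0.104) or LAIR-1- 10 (-0.38, with 0.0576). Stat2 kept it when LAIR-1+ 3 was left out (-0.63, with 0.0135) and lost it without LAIR-1+ 1 (-0.38, with 0.156), LAIR-1+ 2 (-0.56, with 0.0789), LAIR-1- 7 (-0.56, with 0.0841), LAIR-1- 8 (-0.50, with 0.0934) or LAIR-1- 10 (-0.52, with 0.0995). It was also lost with library totals as the scaling (-0.50, with an edgeR adjusted p of 0.0588). Of the STAT5 and PI3K response list, 2 of 12 rose, 1 fell and 9 did not pass; over all genes 1.30% rose and 2.71% fell. Cish was at 646 ± 19.3 CPM in LAIR-1+ and 571 ± 20.1 CPM in LAIR-1- (-0.18 ± 0.06, adjusted p = 0.173 in edgeR), lower in every LAIR-1- library. Socs1 (793 ± 19.8 and 794 ± 66.2 CPM) and Socs2 (100.4 ± 2.80 and 100.4 ± 4.31 CPM) had log2 fold changes of 0.003 and 0.

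The remaining genes set by name did not pass between the fractions. Stat5a was at 45.3 ± 3.39 and 51.9 ± 2.52 CPM, Stat5b at 91.4 ± 0.321 and 101 ± 2.13 CPM, both higher in every LAIR-1- library (adjusted p = 0.367 and 0.382 in edgeR), and Stat6 at 178 ± 6.80 and 155 ± 11.3 CPM, lower in each (adjusted p = 0.208). Bcl2 was at 126 ± 21.3 and 121 ± 4.87 CPM, with an interval of -0.29 to 0.18 on the log2 scale. Il9r was at 119.6 ± 0.344 and 104 ± 9.80 CPM, Il15ra at 17.7 ± 3.48 and 13.7 ± 1.85 CPM and Traf3ip2 at 33.3 ± 0.623 and 35.4 ± 4.93 CPM. Il13ra1, the partner of Il4ra in the second type of IL-4 receptor, had at most 0.278 CPM in any sorted library and was not tested in either comparison. Transcripts of the added cytokines were scarce, with 6 to 32 counts of Il2 and 0 to 14 counts of Il7 per library.

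**Figure D4:**
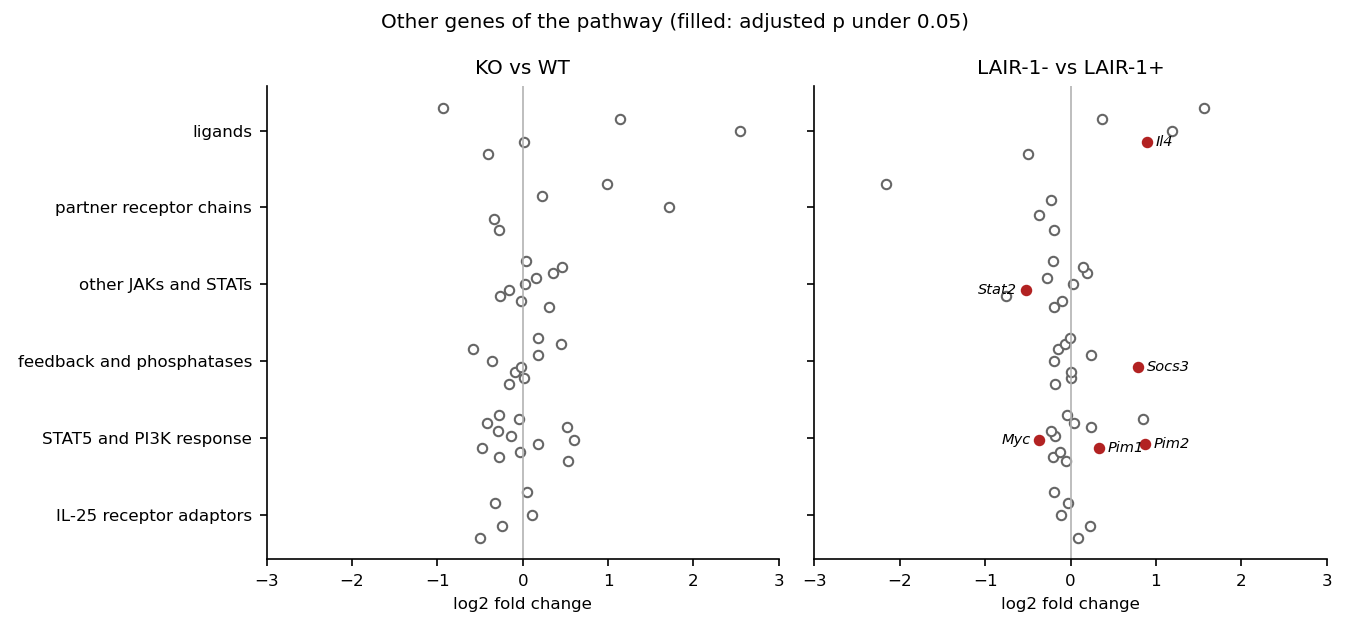
Log2 fold change of the other pathway genes tested in edgeR, by list, KO against WT on the left (45 genes) and LAIR-1- against LAIR-1+ on the right (44 genes); each point is a gene and filled points passed an adjusted p of 0.05. Il4, Socs3, Pim1 and Pim2 are filled on the higher side and Stat2 and Myc on the lower side of the sorted comparison, and no point is filled in KO against WT.

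The genes whose pattern lay closest to 3 of the members were found by the root mean square difference of log2 CPM, each gene centred within its table, over all 12 libraries and 8094 genes. Closest to Il2ra were Ell2 (0.108), Sae1 (0.120) and Uqcrc2 (0.129), against a median of 0.313 for all genes and a spread of 0.228 of Il2ra itself. Closest to Il7r were Pnisr (0.110), Chd1 (0.118) and Stk39 (0.119), against a median of 0.318. For Il17rb the closest were Rad52 (0.240), Stil (0.244) and Kif14 (0.248), against a median of 0.565. The libraries of a table share preparation and scaling, so these are descriptions of 12 points. No other member was among the 3 genes closest to Il2ra, Il7r or Il17rb.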

How the data were processed

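The authors deposited, for each experiment, estimated counts for each gene and, in a second table, the same genes as CPM. Per the submitters' processing notes, bcl2fastq 2.17.1.14, STAR 2.5.3a and Partek were used with mm10; the counting step and annotation are not stated there. Of the estimated counts deposited, 47.9% (KO and WT) and 44.4% (sorted) were not whole numbers within 0.001; the columns of CPM hold 86.9% to 90.0% of their scaling total. Counts were rounded, and each table was fitted alone on its 6 libraries with edgeR 4.0.16 in R 4.3.3 (filterByExpr, TMM, quasi-likelihood F test, Benjamini-Hochberg over all genes tested, threshold 0.05); the step was tested on simulated data. Ratios used counts plus 0.5. Alternatives were other scalings and filters, DESeq2 1.42.0, limma 3.58.1 (voom with quality weights; trend on the authors' CPM plus 1) and leaving out each library. Exon lengths and positions are from GENCODE on mm10. Genes named beside the members were all that passed in a list, 12 set by name, and the 3 closest in pattern to Il7r, Il2ra and Il17rb with a mean of at least 10 CPM, leaving out predicted genes. Il13, Il9 and Ptpn6 were added after their values were seen. The members and lists were chosen with earlier results of these data known.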

Additional observations from a re-analysis of the deposited data

How the results depend on the processing

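In KO against WT, the count of genes passing moved from 1 (0.00706% of those tested) to 55 (1.16%) with a minimum mean of 50 CPM. It was 322 (2.22%) with DESeq2, 2 with limma-voom and 0 with each library left out. Members passing went from 0 to 1 with DESeq2 (Il7r), and other pathway genes from 0 to 2 at the 50 CPM minimum (Il13 and Il9) and 4 with DESeq2. Between the sorted fractions, 572 genes (4.01% of those tested) became 250 (5.67%) at that minimum and 862 (4.79%) with DESeq2. The count was 671 with limma-voom and 333 to 516 with a library left out. Members passing went from 1 to 3 with DESeq2, 2 with limma-voom and 0 to 2 with a library left out, and other pathway genes from 6 to 10 with DESeq2, 10 with limma-voom and 3 to 7 with a library left out. The cause was not tested. Signs that changed belonged to log2 fold changes near 0. Between the fractions Il2rb was 0.006 with library totals and 0.0 with limma-voom. With a library left out, Il2rb ranged from -0.053 to 0.008, Il17rb from -0.081 to 0.128, Il7r from -0.190 to 0.021 and Jak3 from -0.046 to 0.064. In KO against WT, Jak1 ranged from -0.061 to 0.054 and Jak3 from -0.173 to 0.082. No paired analysis was made, because the groups compared share no replicate numbers and the labels name no pairs. Whether LAIR-1+ and LAIR-1- libraries came from the same mice is not labelled, so the fit ignores any such pairing. With 3 libraries a group, exact tests of the ratios cannot go below 0.1. Crlf2 and Il17rb had the fewest counts of the members in KO and WT, where counting error reaches 7.74% for Il17rb in WT.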
